A study of Homo sapiens with 4 samples.

Results

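The comparison set the small RNA library of MDA-MB-231 cells against the library labelled MCF-10A cell, all of both libraries, 2 of the 4 in the series. MDA-MB-231, a line from a triple-negative breast cancer, has mesenchymal features and was cultured in DMEM with 10% FBS. MCF-10A is an immortalised, non-tumorigenic breast epithelial line, and per the labels it was cultured in DMEM/F12 with 5% horse serum, insulin (10 µg/ml), EGF (20 ng/ml), cholera toxin (0.1 µg/ml) and hydrocortisone (0.5 µg/ml). The other 2 libraries were of exosomes, small vesicles that cells shed, purified from these lines. Each group held 1 library of 1 line. Differences therefore have no replicate check, no p-value was computed, and line, medium and library cannot be told apart. Each library had values for 1100 mature miRNA names. A name entered the comparison with at least 10 reads per 10000000 (RP10M) in 1 of the 2 cell libraries, which 665 names did.

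The depths recovered from the values were 7346076 miRNA reads for MDA-MB-231 cells, and the library labelled MCF-10A cell had 10937895. The exosome libraries held 1532908 (MDA-MB-231) and 1254641 (MCF-10A). In MDA-MB-231 cells 566 names were above 0, against 794 in the library labelled MCF-10A cell. A level below is log2(RP10M + 1), the form of the deposited values, and a difference is MDA-MB-231 cells minus the library labelled MCF-10A cell. Names were called higher or lower at a difference of 2, a 4-fold size. Read-rate ratios are given with exact conditional binomial 95% intervals. A ratio against 0 reads is given as "at least", with that library set at 3 reads, the limit that a count of 0 allows. Intervals and limits cover counting error only, since PCR reads without molecular identifiers are not independent molecules, and large read numbers carry a rounding error of 0.347% from the 2 decimals of the values.

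The library labelled MCF-10A cell held many reads on miRNAs listed for other tissues. On 13 lists of miRNAs typical of tissues other than breast epithelium it held 52.6% of its reads (Wilson 95% interval 52.6 to 52.7). Names of identical sequence hold equal values, such as miR-199a-3p and miR-199b-3p with 181464 reads each there. Both enter this share, the depth and the shares below. Whether such reads were split or counted for each name is not given, and the interval does not cover it. MDA-MB-231 cells held 0.504% (0.499 to 0.509), MDA-MB-231 exosomes 3.18% and MCF-10A exosomes 0.188%. Of the 219 listed names, 194 had at least 10 RP10M there, against 32 in MDA-MB-231 cells, 83 in MDA-MB-231 exosomes and 41 in MCF-10A exosomes. The 13 lists were chosen with earlier results of these data known, so these shares do not test the label. The library labelled MCF-10A cell also held epithelial miRNAs, with 46641 reads of miR-200c, 26788 of miR-141 and 6696 of miR-205. The identity of its RNA is not known here and was not tested, and each result below rests on this library. No cell comparison can be made without it, so counts are also given over the names outside these lists.

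**Figure D1:**
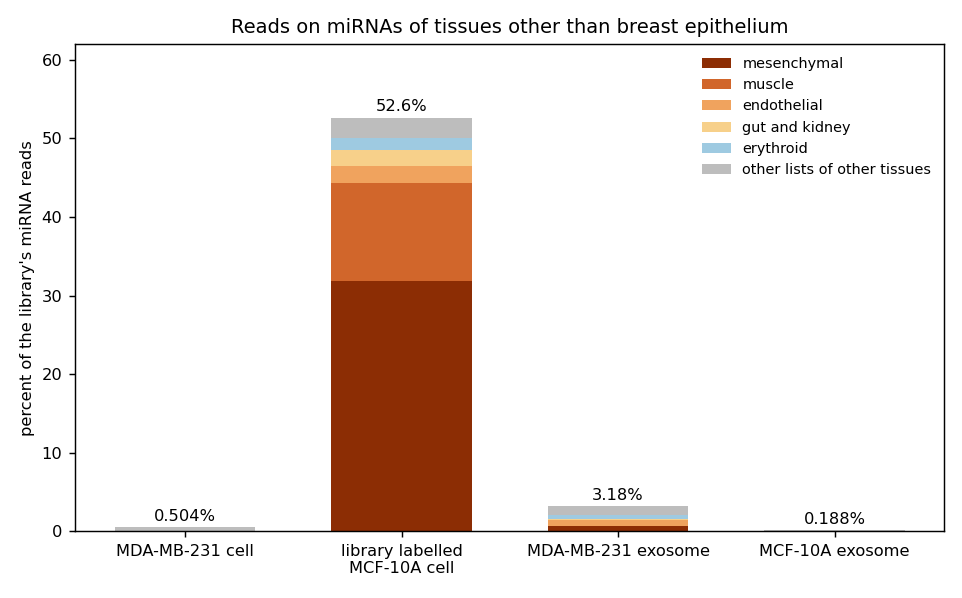
Percent of each library's miRNA reads (vertical axis) on the 13 lists of miRNAs of tissues other than breast epithelium, in the 4 libraries, with the 5 largest lists as colours and the other lists summed in grey. The library labelled MCF-10A cell reaches 52.6%, and the other libraries lie between 0.188% and 3.18%.

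A miRNA is cut from a hairpin precursor, whose arms each give a mature strand of which the Argonaute protein usually keeps mainly 1. The kept strand finds its targets mostly through its seed, bases 2 to 8, so miRNAs that share a seed can share targets. The arm kept less often was named with a star in older nomenclature, which these tables use. miRNAs of 1 cluster are cut from 1 transcript, and many families have near-copies elsewhere in the genome.

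The sequences below are those the results turn on, 5′ to 3′, from RefSeq (GRCh38.p14), with the seed in capitals. The leading miRNAs of MDA-MB-231 cells are shown with those of the other library, where miR-1 and miR-206 share a seed.
miR-21: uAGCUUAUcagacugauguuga
let-7a: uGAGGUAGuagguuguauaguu
miR-30a: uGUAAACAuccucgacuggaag
miR-143: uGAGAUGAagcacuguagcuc
miR-1: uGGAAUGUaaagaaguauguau
miR-206: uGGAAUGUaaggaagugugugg

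The next set holds names that share a seed and were called in opposite directions.
miR-100: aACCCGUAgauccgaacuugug
miR-99b: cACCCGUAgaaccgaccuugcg
miR-99a: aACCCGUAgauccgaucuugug
miR-103: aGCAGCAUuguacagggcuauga
miR-107: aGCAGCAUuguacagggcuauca
miR-146a: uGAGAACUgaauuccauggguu
miR-146b-5p: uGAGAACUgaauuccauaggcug
miR-18a: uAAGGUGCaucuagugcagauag
miR-18b: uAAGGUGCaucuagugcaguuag
miR-20a: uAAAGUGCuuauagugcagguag
miR-20b: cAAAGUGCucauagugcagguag
miR-519d: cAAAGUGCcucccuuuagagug

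The epithelial miR-200 family has a pair of seeds that differ by 1 base, and miR-205 marks basal mammary epithelium.
miR-200c: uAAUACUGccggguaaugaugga
miR-200b: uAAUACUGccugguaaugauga
miR-429: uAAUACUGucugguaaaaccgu
miR-141: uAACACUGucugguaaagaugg
miR-200a: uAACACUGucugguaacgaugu
miR-205: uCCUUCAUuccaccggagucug

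Of the 665 names, 116 were higher in MDA-MB-231 cells (17.4%), 361 were lower (54.3%) and 188 lay within 4-fold. The median difference was −2.83, or −2.20 with names at 0 reads set at their bound. Its quartiles were −6.53 and 0.60. Near the 4-fold size, miR-125b-1* (2.14), miR-181a-2* (2.16), miR-146b-5p (−2.0) and miR-23b* (−2.06) lay just inside the call, and miR-301a (1.98), miR-30d (1.97), miR-340 (−1.99) and miR-378* (−1.97) just outside. Names at 0 in 1 library made up much of this asymmetry: 185 were at 0 in MDA-MB-231 cells only, against 13 in the other library only. Of the 185, 169 were 4-fold lower also at the 3-read bound. A name that passed the minimum only through the library in which it is high was nearly bound to be called, so counts of such names describe the libraries and support nothing further. Outside the lists of other tissues, 471 names remained, of which 114 were higher (24.2%), 176 lower (37.4%) and 181 within, with a median of −0.75. Names with a star were 32 higher and 64 lower of 143, with a median of −1.49, beside −3.09 over the 522 without a star.

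Each level is a share of its library's miRNA reads. A library with many reads on a few names shows lower levels for the rest. Other scalings add 1 constant to all differences of names with many reads: 1.42 by the upper quartile, 0.48 by the median of ratios, and −1.07 when both libraries are scaled to their reads outside the lists of other tissues. Under upper-quartile scaling 166 names were higher and 307 lower, so the higher share of called names went from 24.3% to 35.1%. No called name changed sign under these 3 scalings. Of the 188 names within 4-fold, 78 changed sign under upper-quartile scaling and 32 under the median of ratios, so no direction is read from them.

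**Figure D2:**
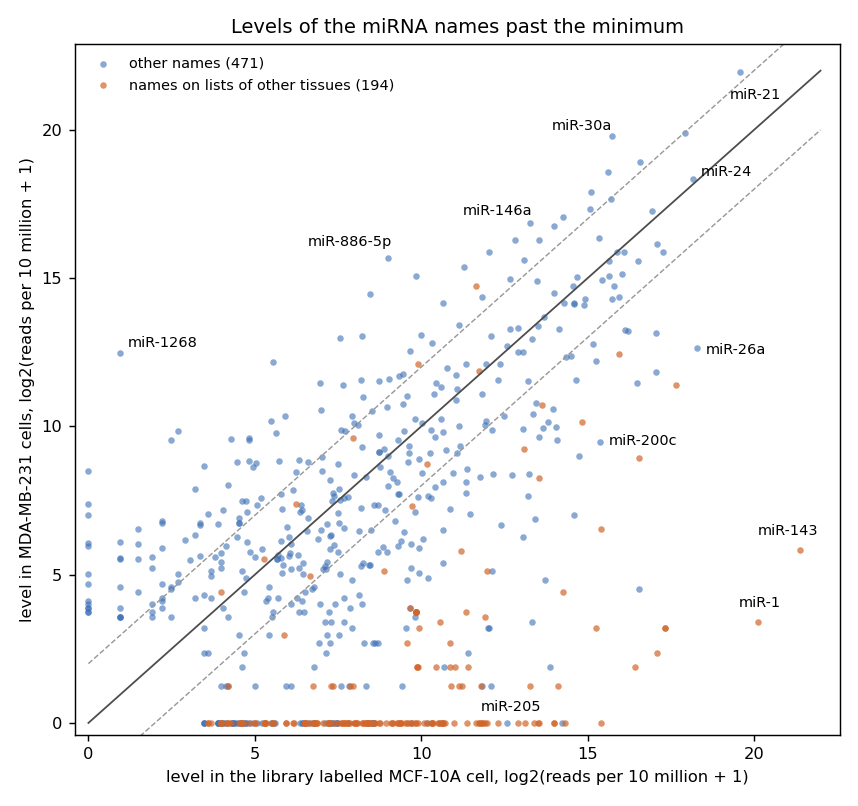
Level of each of the 665 names in MDA-MB-231 cells (vertical axis) against the library labelled MCF-10A cell (horizontal axis), both as log2(RP10M + 1); the solid line marks equal levels and the dashed lines a 4-fold size. The 194 names on lists of other tissues (orange) lie mostly at or near 0 on the vertical axis, while miR-21 and miR-24 lie at the top right.

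miR-21, an oncogenic miRNA, led MDA-MB-231 cells with 40.2% of all reads. Its level was 21.94, against 19.57 in the library labelled MCF-10A cell, a 5.17-fold higher read rate (5.16 to 5.18). let-7a, of the tumour-suppressive let-7 family, stood at 19.89 against 17.94, and let-7f at 18.92 against 16.59. These 3 names differed by 2.37, 1.95 and 2.33, and each came within 4-fold when scaled to reads outside the lists (1.30, 0.88 and 1.26). miR-30a, a repressor of SNAI1 and vimentin, stood at 19.79 against 15.72, or 16.8-fold higher (16.7 to 16.9), and kept a difference of 3.0 under that scaling. Its other arm, miR-30a* (named after its values were seen), differed by 3.84. The 10 leading names took 79.1% of the reads in MDA-MB-231 cells and 62% in the other library. In MDA-MB-231 cells 25 names held 90% of the reads, against 57 in the other library, and the lists of 10 leading names shared miR-21, let-7a and miR-24.

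The library labelled MCF-10A cell was led by miR-143 (27.1% of reads), known from smooth muscle and fibroblasts, and miR-1 (11.5%), a miRNA of skeletal and heart muscle. miR-143 had 2964453 reads there and 41 in MDA-MB-231 cells, a level of 21.37 against 5.83. miR-1 had 1255068 reads there and 7 in MDA-MB-231 cells, a level of 20.13 against 3.40. miR-26a, a broadly expressed growth-restraining miRNA, stood at 12.65 in MDA-MB-231 cells against 18.30, and with miR-26b (11.45 against 16.50) its family's summed reads were 45-fold lower in MDA-MB-231 (44 to 46.1). Under upper-quartile scaling, the least favourable to this direction, they differed by −4.23 and −3.63.

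miR-21 lies at chr17:59841273-59841294, in an intron of VMP1 in GENCODE release 29 (GRCh38). miR-143 lies at chr5:149428978-149428998 in an exon of the long non-coding RNA gene CARMN, and miR-145 at chr5:149430661-149430683 in an intron of that gene. miR-1 comes from chr18:21829015-21829036, in an exon of MIR133A1HG, and from chr20:62554351-62554372, in an intron of MIR1-1HG. The deposited values give a sequence's total, so such copies cannot be separated.

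Some abundant names were nearly equal. Among names with at least 10000 RP10M in both libraries, the smallest differences were those of miR-151-5p (13.69 and 13.70), let-7g (15.89 and 15.87), let-7b (15.59 and 15.63), miR-221 (14.17 and 14.30), miR-222 (13.39 and 13.52) and miR-101 (14.73 and 14.55). miR-221 and miR-222, cut from 1 transcript and known as repressors of the cell cycle inhibitor p27, both differed by −0.13. miR-27a and miR-23a, of the cluster at chromosome 19, differed by 0.31 and −0.21. miR-24, which that cluster and a further one both encode, differed by 0.20. miR-224 and miR-452, from an intron of GABRE, differed by −0.16 and 0.15. Because a scaling adds the same amount to each of these, they would shift together: miR-221 and miR-222 stood at 1.29 under the upper quartile and at −1.20 outside the lists.

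The epithelial miR-200 family represses ZEB1 and ZEB2 and marks the epithelial state. Of its 5 names 4 were lower and 0 higher, with a median of −3.37. Over all 665 names 54.3% were lower, with a median of −2.83, so the family's median lay near that of all names. miR-200c stood at 9.49 against 15.38, or 59.3-fold lower (54.4 to 64.8). Its cluster neighbour miR-141 stood at 7.03 against 14.58, or 189-fold lower (155 to 234). The members of the other cluster, on chromosome 1, differed less: miR-200b by −3.37, miR-200a by −2.15 and miR-429 by −0.86. The calls of miR-200b and miR-200a ended under upper-quartile scaling (−1.95 and −0.73). The cluster difference cuts across the seeds: miR-200c and miR-429 share a seed, as do miR-141 and miR-200a, and in each such pair the chromosome 12 member had the larger difference. In MCF-10A exosomes miR-200c stood at 18.52 and miR-141 at 15.33, above both cell libraries.

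The 3 miRNAs of basal epithelium and skin differed by a median of −8.80, and 0 of them reached 10 RP10M in MDA-MB-231 cells. miR-205, a marker of basal mammary cells, had 0 reads against 6696 (level 12.58), at least 1499-fold lower. miR-203, which restrains the stem-cell factor p63 in skin, had 6 reads against 4479 (501-fold lower, 230 to 1367). miR-31, a suppressor of metastasis in breast models, had 0 reads against 191, at least 42.8-fold lower. In MCF-10A exosomes these 3 stood at 13.56, 11.39 and 10.01, and in MDA-MB-231 exosomes at 3.81, 7.36 and 0. The library labelled MCF-10A cell thus held basal epithelial miRNAs beside those of other tissues.

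The miR-183-96-182 cluster, a sensory-organ and epithelial cluster often raised in tumours, went the other way, with 2 of 3 members higher. Over all names 17.4% were higher. miR-182 stood at 15.38 against 11.29, or 17-fold higher (16.4 to 17.7), and miR-183 at 14.18 against 10.65, or 11.6-fold higher (11 to 12.2). miR-96 differed by 1.29. In exosomes the order was opposite: miR-182 stood at 15.02 in MDA-MB-231 and at 18.16 in MCF-10A.

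The highest differences were mostly names with few or no reads in the library labelled MCF-10A cell. miR-1268 had 4196 reads in MDA-MB-231 cells against 1 in the other library, and stood at 11.69 and 11.52 in the exosome libraries. miR-573 (263 reads against 0, at least 131-fold higher), miR-1276 (123 against 0), miR-1274a (94 against 0), miR-548f (49 against 0) and miR-937 (45 against 0) had no read there. miR-222*, the minor arm of miR-222, stood at 9.85 against 2.70, while miR-222 itself was nearly equal. miR-877, spliced as a short intron of ABCF1, stood at 12.16 against 5.55, or 100-fold higher (75.7 to 135). The cluster of miR-105 and miR-767, in an intron of GABRA3, was higher in all 3 of its listed names, beside 17.4% over all 665 names. There miR-767-5p had 542 reads against 5 (161-fold higher, 68.7 to 499), its other arm miR-767-3p 12 against 0, and miR-105, which targets the tight junction protein ZO-1, 565 against 20. In MCF-10A exosomes all 3 had 0 reads. Both arms of miR-767 passed the minimum only through MDA-MB-231 cells, so a higher call was nearly fixed for them.

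Of 11 names since traced to pieces of other RNAs, 6 were higher and 1 lower, with a median of 2.19. Over all names 17.4% were higher and 54.3% lower. miR-886-5p, a name later assigned to a vault-like RNA, stood at 15.69 against 9.0, or 103-fold higher (95.1 to 113). miR-886-3p, the other end of that RNA, had 66 against 139 reads and a difference of −0.49. The tRNA-derived miR-1274b and miR-720 differed by 4.02 and 4.69, and miR-1975, of Y RNA, by −3.45. miR-1246, miR-1979 and miR-1308, more abundant in the exosome libraries, lay within 4-fold.

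Of 13 names of the miR-17-92 and paralogous clusters, proliferation miRNAs induced by MYC, 4 were higher and 4 lower, with a median of 0.50. Of the names that only the chromosome 13 cluster encodes, 3 were called, all higher, and of those that only its chromosome X copy encodes 3 were called, all lower. On chromosome 13, miR-18a stood at 14.46 against 8.47 (63.7-fold higher, 57.6 to 70.6), miR-20a at 16.28 against 12.81, miR-17 at 15.60 against 13.10 and miR-19a at 11.33 against 10.60. In the paralogous cluster on chromosome X, miR-363 stood at 5.13 against 12.14 (133-fold lower, 89.7 to 205), miR-20b at 5.90 against 9.93, miR-18b at 5.01 against 7.56 and miR-106a at 9.33 against 9.64. miR-19b and miR-92a, which both clusters encode, differed by −2.12 and 0.50. miR-93, of the chromosome 7 cluster, stood at 16.28 against 13.53. Scaled to reads outside the lists, miR-17 and miR-93 came within 4-fold (1.43 and 1.68), while miR-18a and miR-20a did not (4.92 and 2.40). Under upper-quartile scaling miR-18b and miR-19b came within it (−1.15 and −0.70).

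A division by locus appeared also in the trios of miR-99/100, let-7 and miR-125, which exist as copies on chromosomes 11, 21 and 19. miR-100, on chromosome 11 at chr11:122152275-122152296 in an intron of MIR100HG, stood at 18.59 against 15.62, or 7.84-fold higher (7.76 to 7.91). miR-99a, on chromosome 21 at chr21:16539101-16539122 in an intron of MIR99AHG, stood at 11.84 against 17.05, or 37-fold lower (35.6 to 38.5). miR-99b, on chromosome 19, stood at 16.76 against 13.99. Some other names also tell the copies apart. The minor arms miR-100*, let-7a-2* and miR-125b-1*, of chromosome 11, differed by 4.70, 3.81 and 2.14. Of chromosome 21, miR-99a* differed by −3.26 (−1.85 under the upper quartile), and let-7c and miR-125b-2* lay within 4-fold, at −1.06 and −1.18. On chromosome 19 miR-99b*, let-7e and miR-125a-5p differed by 3.56, 2.51 and −0.86. Scaled to reads outside the lists, miR-100 and miR-99b came within 4-fold (1.90 and 1.70), as did let-7e (1.44) and miR-125b-1* (1.07).

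Some near-identical miRNAs with 1 seed stood on opposite sides. RefSeq sequences were matched for 464 of the 665 names, and 161 of these fell into 58 seeds shared by at least 2 names. In 9 of the 58 seeds, members were called in both directions, and this count was 6 under upper-quartile scaling, 8 by the median of ratios and 6 outside the lists. Of all 464 matched names 69 were higher and 257 lower, so unrelated names can also fall on opposite sides. The count of seeds was not compared with that of unrelated names and describes these names only. Counted from 1 at the 5′ end, miR-100 and miR-99a differ by A16U, miR-103 and miR-107 by G22C, miR-18a and miR-18b by A20U, and miR-20a and miR-20b by U1C and U10C. miR-103, in introns of PANK3 and PANK2, stood at 17.34 against 15.07 (a difference of 2.27, and within 4-fold at 1.20 outside the lists), while miR-107, in an intron of PANK1, stood at 9.99 against 14.04. Within MDA-MB-231 cells miR-103 thus exceeded miR-107 by 7.35 on the log2 scale, and by 1.03 within the library labelled MCF-10A cell, a contrast that no scaling alters. How reads that fit more than 1 name were assigned is not given in the sources used here, and it bears on names that differ only near the 3′ end, such as this pair.

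miR-146a and miR-146b-5p, targets and brakes of NF-κB signalling, also parted. miR-146a stood at 16.87 against 13.26, or 12.2-fold higher (12 to 12.5), and miR-146b-5p at 12.34 against 14.34, just at the 4-fold size and within it under the upper quartile (−0.58) and the median of ratios (−1.52). miR-155, an inflammatory miRNA of leukocytes, had 3 reads in MDA-MB-231 cells against 2955 in the other library. Summed over its seed, miR-146 was 4.09-fold higher (4.04 to 4.14), and within 4-fold outside the lists, at a log2 difference of 0.96. Across the 58 shared seeds, the summed level was 4-fold higher in 8, lower in 32 and within in 18. Singly, 69 of the 464 matched names were higher, 257 lower and 138 within, so the share of lower sums lay near that of lower names. Of the 9 with members in both directions, the sum was higher in 4, lower in 0 and within in 5. The number higher was 8 under the upper quartile, 5 by the median of ratios and 1 (the miR-18 seed) outside the lists.

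**Figure D3:**
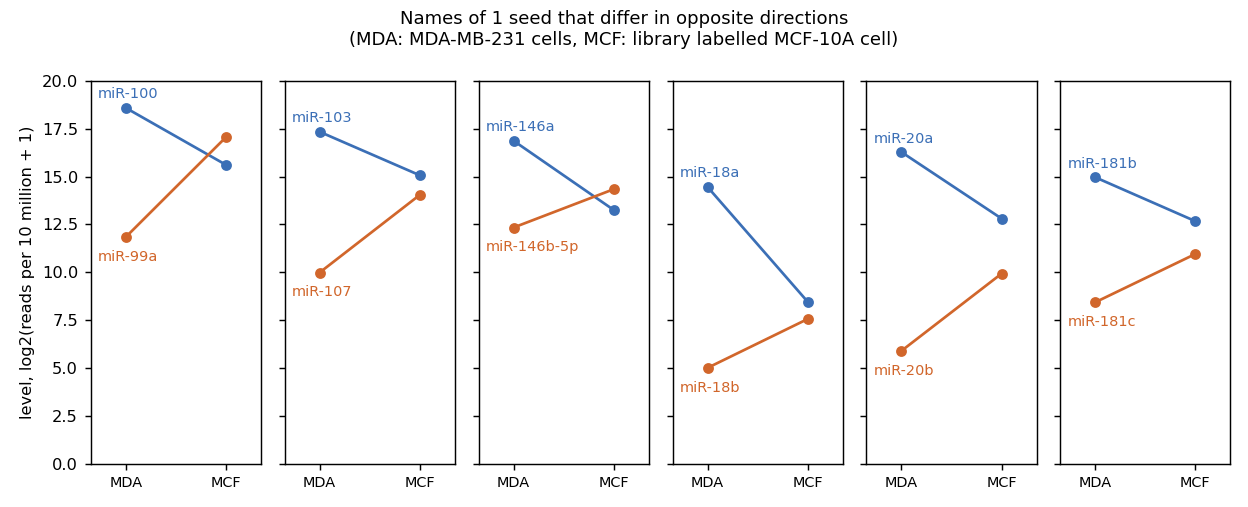
Levels, as log2(RP10M + 1), of 6 pairs of names that share a seed, in both cell libraries. In each pair the first name (blue) is higher in MDA-MB-231 cells and the other (orange) lower; miR-100 goes from 18.59 to 15.62 and miR-99a from 11.84 to 17.05.

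All 8 names of the miR-34 and miR-449 family, which p53 and cilia formation induce, were lower, 4 of them at 10 RP10M or more in MDA-MB-231 cells. Their median was −5.66 (−5.45 with names at 0 at their bound), beside 54.3% lower and a median of −2.83 over all names. miR-34a stood at 6.67 against 12.41 (54-fold lower, 43 to 68.9) and miR-34c-5p at 7.64 against 13.22 (48-fold lower, 40.8 to 56.9). miR-34b and miR-34c-3p had 0 reads. Of the miR-15/16 family, which targets cyclins and BCL2, 4 of 7 were lower and 0 higher (median −2.98), close to the 54.3% and −2.83 over all names, with miR-16 at 13.23 against 16.21, and miR-195 and miR-497, a stromal cluster, at 3.40 against 13.33 and 4.82 against 13.73. miR-16 came within 4-fold under the upper quartile (−1.56). miR-15a and miR-15b differed by −0.38 and −0.75.

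Names of the miR-193/365 clusters were lower in 4 of 4 names (median −4.61), beside 54.3% and −2.83 over all names. miR-193b stood at 8.40 against 13.25 and miR-365 at 8.36 against 12.73. Only miR-193a-5p, at −3.03, came within 4-fold under the upper quartile (−1.62). Among the miRNAs of the Hox clusters 3 of 5 were lower, a share near the 54.3% over all names. miR-10b, which promotes invasion in breast cancer models, had 16 reads against 104948 (4405-fold lower, 2713 to 7707), and miR-196b had 1 against 3981. Its near-copy miR-10a stood at 15.05 against 14.68. In MDA-MB-231 exosomes miR-10b stood at 14.10, above the 4.51 of the cells.

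Other families split or lay near 0. In the let-7 family 2 of 9 were higher and 0 lower (median −0.04). In the miR-30 family miR-30a was higher, miR-30b lower (11.56 against 14.66, within 4-fold under the upper quartile at −1.68) and 3 within. In the miR-29 family, which targets collagens, miR-29c stood at 9.0 against 14.74 while miR-29a and miR-29b differed by −1.38 and −0.47. In the miR-181 family miR-181b was higher (2.29) and miR-181c lower (−2.52), and each came within 4-fold under 1 scaling (1.22 outside the lists, −1.10 under the upper quartile). miR-23b differed by −2.86 and miR-130a by −2.39, both within 4-fold under the upper quartile (−1.44 and −0.97), and miR-152 by −4.54. miR-320a was at 12.70 against 12.57, but miR-320b and miR-320c, its near-copies, differed by −3.76 and −3.57.

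**Figure D4:**
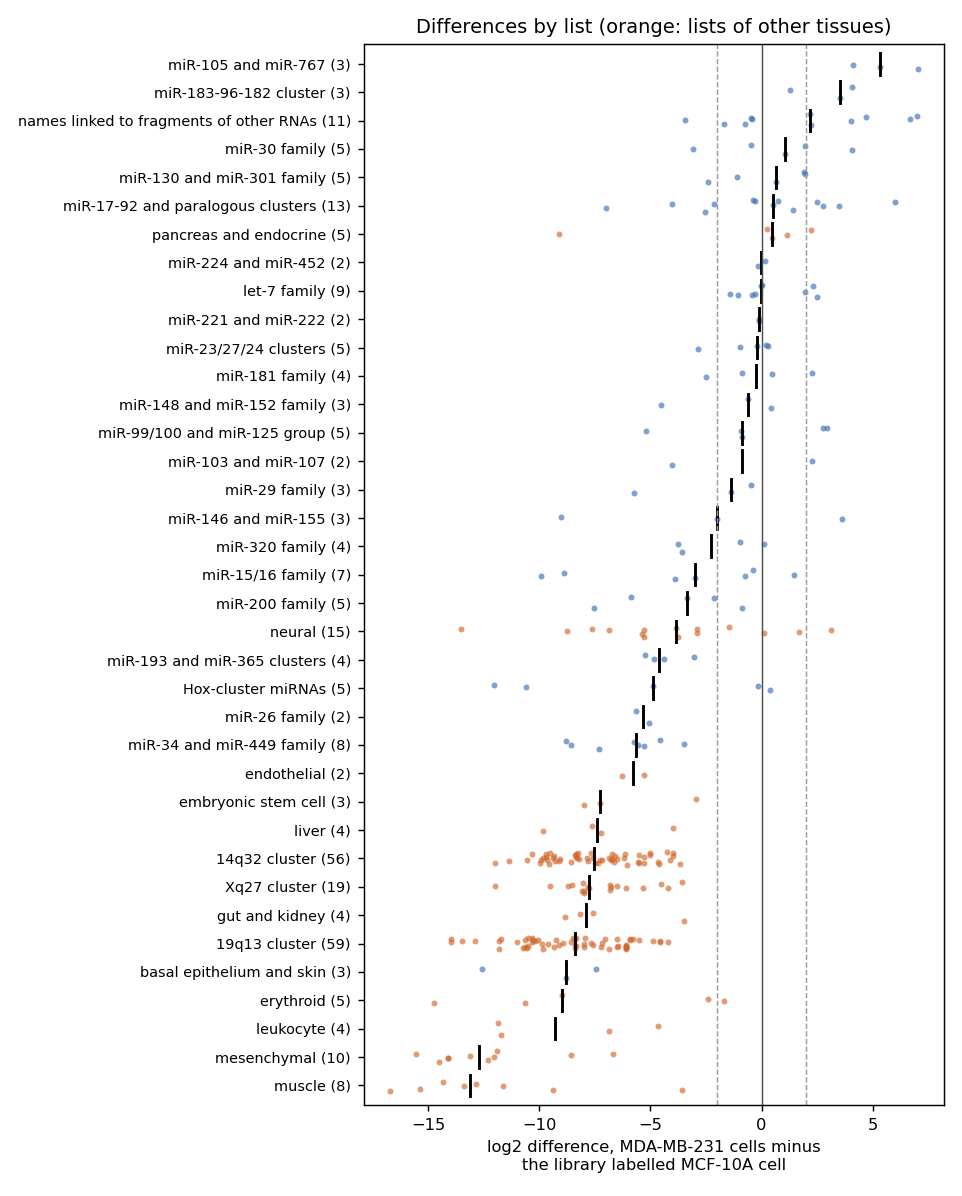
Difference of each name (points), MDA-MB-231 cells minus the library labelled MCF-10A cell on the log2 scale, by list, with the number of names past the minimum in brackets and the median as a bar; dashed lines mark a 4-fold size. Medians run from −13.12 for muscle to 5.32 for miR-105 and miR-767, and 185 of the 194 names of other tissues (orange) lie past the lower dashed line.

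Lists of other tissues held 185 of the 361 lower names and 2 of the 116 higher ones. Most of their names passed the minimum only through the library labelled MCF-10A cell, since 32 reached it in MDA-MB-231 cells. Of the 10 mesenchymal names 1 reached it there, and all 10 were lower (31.9% against 8.44e-04% of the reads, in the library labelled MCF-10A cell and in MDA-MB-231 cells), with a median of −12.71, or −11.58 at the bounds. miR-145, of the miR-143 cluster, had 2 reads against 96572, miR-199a-3p 6 against 181464 and miR-199b-5p 0 against 9804. Of the 8 muscle names 0 reached it there (12.4% against 1.09e-04% of reads), with a median difference of −13.12, or −11.82 at the bounds. There miR-133a had 0 reads against 46965, miR-133b 0 against 22525, miR-206 1 against 19339 and the heart myosin-intron miRNA miR-208b 0 against 3490. In MDA-MB-231 cells 6 of the 8 muscle names had 0 reads. The share lower over all 665 names was 54.3%, with a median of −2.83, or −2.20 at the bounds.

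Blood and vessel miRNAs followed. miR-451, the main miRNA of red cells, had 3 reads in MDA-MB-231 cells against 153654, and 4 of the 5 erythroid names were lower (median −8.97, or −8.62 at the bounds). Of these miR-486-5p was within 4-fold under the upper quartile (−1.02). All 4 leukocyte names were lower (median −9.30, or −8.28 at the bounds): miR-223 and miR-150 had 0 reads against 4093 and 3766, and miR-142-3p 834 against 31856. The endothelial miR-126 stood at 11.40 against 17.67, or 77.2-fold lower (73.9 to 80.7). miR-122, the liver miRNA, had 15 reads against 21458. Of the 4 liver names, 4 were called lower (median −7.42, or −5.38 at the bounds), but 3 had 0 reads in MDA-MB-231 cells. Among those 3, miR-885-3p (0 against 16 reads) was at least 3.58-fold lower at its bound, which does not reach the 4-fold size. Over all 665 names 54.3% were lower. The gut and kidney miRNAs miR-192, miR-194 and miR-215 stood at 12.45, 8.94 and 6.55 against 15.95, 16.54 and 15.39.

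The large imprinted and primate-specific clusters were read mainly in the library labelled MCF-10A cell. Of the 65 names of the 14q32 cluster, 56 reached 10 RP10M there and 0 in MDA-MB-231 cells, where 57 had 0 reads. Of the 59 names of the placental 19q13 cluster, 59 reached it there and 9 in MDA-MB-231 cells, and all 59 were lower (median −8.41, or −7.11 at the bounds), with miR-517a and miR-517b, of identical sequence, at 0 reads against 17920. Of the 20 names of the testis-linked Xq27 cluster, 19 reached it there and 0 in MDA-MB-231 cells, led by miR-514 with 1 read against 10729. The 19q13 names include miR-519d, with 0 reads against 1844, which shares its seed with miR-20a. Of 17 embryonic stem cell names 3 reached the minimum, 0 of them in MDA-MB-231 cells, and the highest, miR-372, had 279 reads in the library labelled MCF-10A cell. The share lower over all 665 names was 54.3%, with a median of −2.83 (−2.20 at the bounds). Most names of these lists passed the minimum only through the library labelled MCF-10A cell, so their calls only describe the libraries.

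Neural and pancreatic names were mixed. Of 15 neural names 11 were lower and 1 higher (median −3.85, or −3.23 at the bounds). Over all names 54.3% were lower and 17.4% higher, with a median of −2.83 (−2.20 at the bounds). miR-124, the main neuronal miRNA, had 0 reads against 13027, and miR-9 stood at 10.72 against 13.63 (within 4-fold under the upper quartile, −1.49). miR-138, which targets EZH2 and RhoC, was higher, at 14.75 against 11.64, or 8.64-fold (8.33 to 8.95), and miR-218 differed by 0.13. In the pancreas and endocrine list miR-375 had 2 reads against 2286, while miR-7, a repressor of EGFR, stood at 12.12 against 9.91, and miR-216a, miR-216b and miR-217 lay within 4-fold. miR-135a, on no list, had 0 reads against 21163.

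By genome position, of the 54 matched names encoded on chromosome 14 alone, 52 were lower and 0 higher, and on chromosome 19 49 of 68 were lower and 9 higher. Over all 464 matched names 257 were lower and 69 higher. The counts of chromosomes 14 and 19 take in names of the 14q32 and 19q13 clusters given above, so they are no separate result. Not all chromosomes are given here. On chromosome 13, which carries miR-17-92, 4 of 10 were higher and 1 lower, and on chromosome 7 9 of 28 were higher and 6 lower. In 18 clusters of neighbours, 7 had all members lower, 1 (miR-105 and miR-767) all higher, and 4 none called. The shares over all 665 names were 54.3% lower and 17.4% higher. All of these 7 but miR-200c and miR-141 are clusters of the lists of other tissues, so this count follows from the choice of clusters. Among the 18, miR-17-92 was counted without miR-19b and miR-92a, and with miR-19b it holds calls in both directions. The median GC content was 50% in the 69 matched higher names, 47.6% in the 138 within 4-fold and 47.6% in the 257 lower, and the median length was 22 nt in each.

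The ratio of the arms of 1 hairpin depends on no scaling. In 58 hairpins both arms had at least 50 RP10M in both cell libraries, and the ratio differed at least 4-fold in 29: it was greater in MDA-MB-231 cells in 11 and smaller in 18. Counted among the 58 and the 11 is the pair of miR-886-5p and miR-886-3p (a difference of 7.18). These are ends of a vault-like RNA, not arms of a miRNA hairpin. In miR-374a the arms changed order. miR-374a stood at 9.96 and miR-374a* at 15.08 in MDA-MB-231 cells, while in the library labelled MCF-10A cell they stood at 13.67 and 9.83, a 498-fold change of the ratio. The log2 ratio of its arms was −5.12 and 3.84 in the cell libraries and −3.61 and −4.08 in the exosomes of MDA-MB-231 and MCF-10A. The first arm of miR-27a exceeded miR-27a* by 4.25 in MDA-MB-231 cells and by 9.37 in the other library, and by 5.07 and 4.72 in the exosomes.

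Both arms of miR-331 are shown here because their order also changed.
miR-331-5p: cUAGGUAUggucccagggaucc
miR-331-3p: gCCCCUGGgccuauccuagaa
The 5p arm over the 3p arm had a log2 ratio of 0.35 in MDA-MB-231 cells against −4.35 in the library labelled MCF-10A cell, beside 1.77 and 1.5 in the exosomes. The 5p arm over the 3p arm stood at 0.17 against −3.88 in miR-574, 0.06 against −3.39 in miR-423 and −1.68 against 2.01 in miR-28, hairpins chosen after their values were seen. The leading arm differed between the cell libraries in 11 hairpins. In 10 of them all exosome arms were measured, and in 8 both exosome libraries had the leading arm of MDA-MB-231 cells, against 0 for that of the library labelled MCF-10A cell. Over 53 hairpins measured in all 4 libraries, the ratio in MCF-10A exosomes was within 4-fold of that in MDA-MB-231 cells in 49 and within 4-fold of that in the library labelled MCF-10A cell in 23. The cell libraries were within 4-fold of each other in 27. The part of those tissues, of library preparation and of read assignment in these ratios was not tested.

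**Figure D5:**
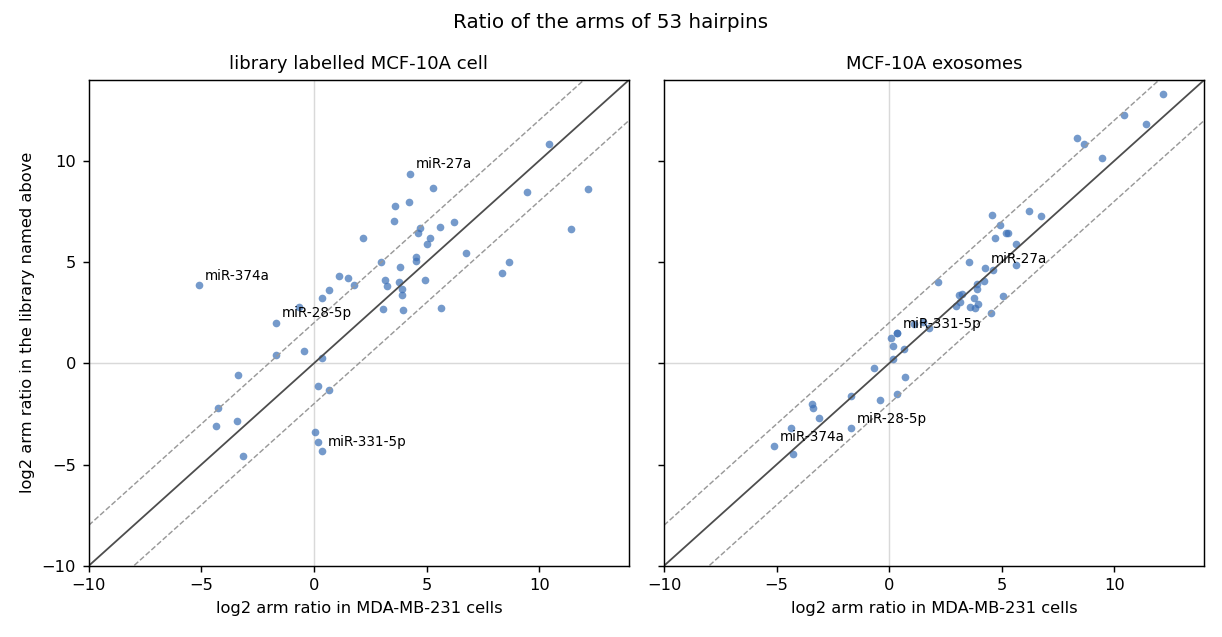
Log2 ratio of the arms of 53 hairpins in the library labelled MCF-10A cell (left) and in MCF-10A exosomes (right), each against the ratio in MDA-MB-231 cells (horizontal axes); the solid line marks equal ratios and the dashed lines a 4-fold difference. In the left panel 27 hairpins lie within the dashed lines and in the right panel 49, and miR-374a lies at 3.84 on the left and −4.08 on the right.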

How the data were processed

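Per the labels' protocols, total RNA of cultured cells and of exosomes was isolated with TRIzol, the size range of 17 to 52 nt was kept, and libraries were made by 5′ monophosphate-dependent ligation and sequenced on a Genome Analyzer IIx. The submitters' processing notes name Novoalign, edgeR and hg18 without version or role. Not given in the sources used here are read assignment, the miRBase release and the normalisation. The deposited values are on a log2 scale with 2 decimals, and 2 to their power, minus 1, sums to 9992361 to 10004141 in each library, so they were read as log2(reads per 10000000 + 1), with RP10M for reads per 10000000. Whole reads were recovered from the smallest step between low values (1.36, 0.914, 6.52 and 7.97 RP10M for MDA-MB-231 cells, the library labelled MCF-10A cell and the exosomes in that order). Of the names low enough to resolve (55.7%, 40.1%, 65.7% and 65.6% of those above 0), 100% held a whole number within the rounding of 0.005. A count of 0 allows 3 reads, or 4.08, 2.74, 19.6 and 23.9 RP10M.

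Differences used the deposited values, with a minimum of 10 RP10M in 1 cell library, a 4-fold size and a pseudocount of 1. Names at 0 carry the pseudocount, which can exceed what the reads support, so bounds are given. Alternatives were 3 scalings, no minimum and a minimum of 100, a pseudocount of 10, identical names counted 1 time, and sizes of 2 and 10. A requirement of 10 recovered reads and an interval or bound past no difference was added after seeing the data.

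The 37 lists of miRNAs and the names were chosen with earlier results of these data known. Named were the 12 highest and 12 lowest differences with at least 50 RP10M in 1 library, the 10 leading names of each library, the 6 smallest differences of names with 10000 RP10M in both, up to 4 members of each list by mean level (all, in lists of up to 6), and both arms of the 6 hairpins with the most different ratio. Outside this rule, and chosen after their values were seen, are miR-18b, miR-19a, miR-19b, miR-20b, miR-28, miR-30a*, miR-34b, miR-34c-3p, miR-99a*, miR-99b*, miR-100*, miR-106a, miR-125b-1*, miR-125b-2*, miR-195, miR-199b-5p, miR-208b, miR-363, miR-423, miR-497, miR-519d, miR-574, miR-720, miR-1274b, miR-1975, let-7a-2*, let-7c, let-7e and the names just inside and outside the 4-fold size. RefSeq sequences (GRCh38.p14) were matched for 766 of 1100 names, 470 by the same name and 296 by arm or later name, which cover 94.8% and 94.2% of the reads of the cell libraries. Host genes are from GENCODE release 29. The recovery of reads and the intervals were tested on simulated data. Python 3.11.15, numpy 2.4.6, pandas 2.3.3, scipy 1.17.1 and matplotlib 3.10.9 were used.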

Additional observations from a re-analysis of the deposited data

Results flagged for a closer look

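Among the 163 named miRNAs, 24 had at least 100 reads in 1 exosome library and differed at least 4-fold one way between the cell libraries and at least 4-fold the other way between the exosome libraries of the same lines. With 1 library a group this change of direction was not tested. Every cell difference below includes the library labelled MCF-10A cell, in which other-tissue miRNAs hold 52.6% of reads. The 163 were chosen in part for large differences, and the same count over all 665 names was not made. miR-199a-3p and miR-199b-3p, of identical sequence, are both counted. Some exosome differences rest on few reads in MCF-10A exosomes, such as 2 of miR-1 (258 in MDA-MB-231 exosomes), 2 of miR-451 (4137), 2 of miR-199a-3p (578) and 3 of miR-369-3p (384).

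Most were lower in MDA-MB-231 cells and higher in MDA-MB-231 exosomes. Of muscle and mesenchymal miRNAs, miR-1 differed by −16.73 between cells and 6.64 between exosomes, miR-143 by −15.54 and 8.40, and miR-199a-3p and miR-199b-3p, of identical sequence, each by −14.14 and 7.80. The endothelial miR-126 differed by −6.27 and 4.87, and its other arm miR-126* by −5.29 and 4.19.

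Of red cell miRNAs, miR-451 differed by −14.75 and 10.64, miR-144* by −8.97 and 8.17, and miR-486-5p by −2.43 and 4.74. The leukocyte miR-142-3p differed by −4.68 and 4.55, miR-142-5p by −6.85 and 4.44, miR-150 by −11.75 and 2.99, and miR-223 by −11.87 and 3.55. In MDA-MB-231 cells, where miR-150 and miR-223 had 0 reads, they were at least 843-fold and 916-fold lower at the 3-read bound, sizes of 9.72 and 9.84 on the log2 scale. miR-155 differed by −9.05 and 4.95, and the liver miR-122 by −9.84 and 8.46.

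In the 14q32 cluster, miR-127-3p differed by −10.55 and 12.54, miR-379 by −9.99 and 5.87, and miR-369-3p by −6.72 and 6.65. miR-127-3p had 0 reads in MCF-10A exosomes, and at the bound the exosomes of MDA-MB-231 held at least 249-fold more of it, a size of 7.96. Outside the lists of other tissues, miR-10b differed by −12.04 and 6.51, miR-99a by −5.21 and 2.03, miR-152 by −4.54 and 3.27, and miR-424 by −3.91 and 3.12.

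miR-182 and miR-183 went the opposite way. They differed by 4.09 and 3.53 between cells and by −3.14 and −2.33 between exosomes.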

How the results depend on the processing

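No paired analysis was possible because each group held 1 library. The 116 names higher and 361 lower moved by less than 1.5 times under most settings. The exceptions were a 10-fold size, with 60 higher, and scaling to reads outside the lists of other tissues. That scaling covered 471 names, with 70 higher and 222 lower, beside 114 higher and 176 lower among the same names as deposited. The median difference of −2.83 became −1.45 under upper-quartile scaling and −2.36 by the median of ratios. Over the 471 names outside the lists it was −0.75 as deposited and −1.82 when scaled to reads outside the lists. With the lists included, the median was −1.83 with no minimum, −3.09 with a minimum of 100 and −1.66 with a pseudocount of 10. With identical names counted 1 time it was −2.54. With 10 recovered reads and an interval or bound past no difference, a setting chosen after seeing the data, 111 were higher and 361 lower. No sign change was open to a named miRNA or list median past 4-fold. Each scaling shift was smaller than that size, and a larger pseudocount keeps the sign. Depth limits names at 0: a count of 0 allows 4.08 reads per 10000000 in MDA-MB-231 cells, and 2.74 is the limit for the library labelled MCF-10A cell. Differences between these libraries cannot be told apart from differences in culture medium, and the source of the other-tissue reads was not tested.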
